A study of Mus musculus with 9 samples.

Results

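Glycolysis and glycogen genes were followed as a group of 36 members in total RNA-seq of the mouse gastrocnemius, the large and mostly fast-twitch calf muscle. The members were chosen by symbol, for glucose and lactate transport, the glycolytic enzymes and their regulators, and glycogen synthesis and breakdown. All 36 were found among the 49568 gene rows of the deposited count table, and all 36 passed the filter on low counts that left 14986 genes for testing. Muscle of 3 kinds was profiled in C57Bl6J mice of about 8 weeks, with 3 libraries of each. RL is the irradiated hind limb of mice that received 3 sessions of 8.2 Gy at 4 weeks of age, CL is the opposite limb of the same mice, and CTL is muscle of mice given 0 Gy. The series text places the sampling 3 weeks after irradiation and death at 8 weeks. The labels number 6 mice, so that RL and CL of 1 replicate number share a mouse, each CTL library has its own, and no group carries a genetic change in the labels. The comparisons ask how the irradiated limb and the opposite limb differ from untreated muscle and from each other.

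Glycolysis splits glucose into pyruvate in the cytosol and yields ATP without oxygen, and fast-twitch fibres rely on it and on their glycogen store for short bursts of work. Muscle runs the pathway with its own forms of several enzymes, such as the phosphofructokinase Pfkm, the phosphoglycerate mutase Pgam2, the enolase Eno3 and the glycogen phosphorylase Pygm, beside forms that most tissues express. Glucose enters through facilitative transporters, among which Slc2a4 (GLUT4) is the insulin-responsive one of muscle and fat, and lactate leaves through monocarboxylate transporters.

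The sequences before the transcription starts of 3 members are shown, for a pair of enzyme forms and for the member with the highest fold change, and no expression value was tested against them. Pgam2 and Pgam1 are the muscle form and the general form of phosphoglycerate mutase and lay far apart in level, and Ppp1r3c, which tethers protein phosphatase 1 to glycogen, had the highest log2 fold change of the members in RL against CTL. Each is the 250 bases before a start in RefSeq (GRCm38.p6), read 5′ to 3′ on the gene's strand. Capitals mark matches, on either strand, to the MEF2 element (bound by myocyte enhancer factors) or to ACGTG, the core of the hypoxia response element, with overlapping matches run together. The windows are chr11:5803797-5804046 on the minus strand for Pgam2, chr19:41911621-41911870 on the plus strand for Pgam1 and chr19:36736605-36736854 on the minus strand for Ppp1r3c.
Pgam2: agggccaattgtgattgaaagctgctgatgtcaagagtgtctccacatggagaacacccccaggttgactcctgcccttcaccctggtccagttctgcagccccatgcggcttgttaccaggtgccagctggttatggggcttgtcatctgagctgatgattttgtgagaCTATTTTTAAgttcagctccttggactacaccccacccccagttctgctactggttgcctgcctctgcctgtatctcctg
Pgam1: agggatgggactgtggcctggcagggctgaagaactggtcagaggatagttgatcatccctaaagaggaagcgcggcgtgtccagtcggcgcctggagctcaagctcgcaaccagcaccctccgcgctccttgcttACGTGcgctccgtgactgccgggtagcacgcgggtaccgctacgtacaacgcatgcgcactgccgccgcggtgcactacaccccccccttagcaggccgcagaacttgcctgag
Ppp1r3c: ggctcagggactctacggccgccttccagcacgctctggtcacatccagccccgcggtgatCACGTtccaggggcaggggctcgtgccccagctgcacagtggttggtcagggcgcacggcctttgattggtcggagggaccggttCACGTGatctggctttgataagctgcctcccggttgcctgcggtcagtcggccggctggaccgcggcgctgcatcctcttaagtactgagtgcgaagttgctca

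The Pgam2 window held 1 MEF2 element, 5 E-boxes (CANNTG, bound by basic helix-loop-helix factors) and 1 CG dinucleotide. The Pgam1 window held no MEF2 element, no E-box, 1 ACGTG and 22 CG dinucleotides. In the Ppp1r3c window ACGTG matched at 3 positions, 2 of them on opposite strands of a single CACGTG, beside 20 CG dinucleotides. Such windows were matched by symbol for 33 of the 36 members, which had 49 of them, among 32851 windows in all. MEF2 elements were in 6.12% of the members' windows and in 2.92% of all windows, ACGTG in 36.7% and 16.6%, and E-boxes in 73.5% and 66.2%. The GC box GGGCGG was in 46.9% of the members' windows and in 32.7% of all, and TATAAA in 4.08% and 12.4%. The members' MEF2 matches were in windows of Pfkfb1, Pgam2 and Ppp1r3a only. The windows of the muscle forms Pfkm, Eno3 and Pygm held none, so the printed pair does not stand for muscle forms in general. Some members had several windows, a few of them overlapping, so windows are not independent. The median number of CG dinucleotides, which ACGTG and GGGCGG contain, was 13.0 in the members' windows and 6.0 in all. Its part in these shares was not tested. The motif matches are matches of letters and say nothing of binding.

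The libraries held 37.7 to 42.8 M counts in RL, 40.1 to 44.6 M in CL and 30.8 to 41.8 M in CTL. Mitochondrially encoded genes took 44.0% to 51.8% of the counts in RL, 42.4% to 48.7% in CL and 31.1% to 46.7% in CTL, and the titin gene Ttn took 10.5% to 18.1% over all libraries. The members took 1.78% to 2.37% of a library in RL, 2.08% to 2.29% in CL and 2.19% to 2.82% in CTL. The median correlation of a library with the remaining ones was lowest for CL 1, at 0.969, and 0.979 to 0.987 elsewhere. Replicates of a group were never alike within counting noise, the chi-square per degree of freedom being at least 13.2. Levels are CPM, counts scaled to a common library size with edgeR's trimmed mean of M values, and levels of different genes are set side by side only as CPM per kilobase of exon. The length is that of all annotated exons of a gene joined, 13401 bases for Pfkp, 6675 for Pfkl and 4133 for Gapdh. The order of members by level depends on these lengths, which are not those of single transcripts.

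The member set was carried by the muscle forms of the enzymes. The aldolase gene Aldoa led with 1772 CPM per kilobase as a mean of the 9 libraries, followed by Eno3 with 1321, Pygm with 942, Pgam2 with 660.4, Pfkm with 452 and the lactate dehydrogenase gene Ldha with 362 CPM per kilobase. At the other end stood forms and transporters typical of other tissues: Slc2a1 at 0.923, Pgam1 at 0.597, the hexokinase Hk1 at 0.585, the liver-type phosphofructokinase Pfkl at 0.539, the glucose transporter Slc2a3 at 0.507, the platelet-type Pfkp at 0.480 and the brain-type aldolase Aldoc at 0.0584 CPM per kilobase. Aldoc rested on 5 to 13 counts a library, so its ratios are the least precise of the set. The labelled tissue was checked on 15 genes of fast fibres, whose sum was 28046.3 to 40814.6 CPM per kilobase, against 168.7 to 320.0 CPM per kilobase for 13 genes listed for slow fibres. That list for slow fibres also holds Myh2, a myosin gene of fast oxidative fibres.

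**Figure D1:**
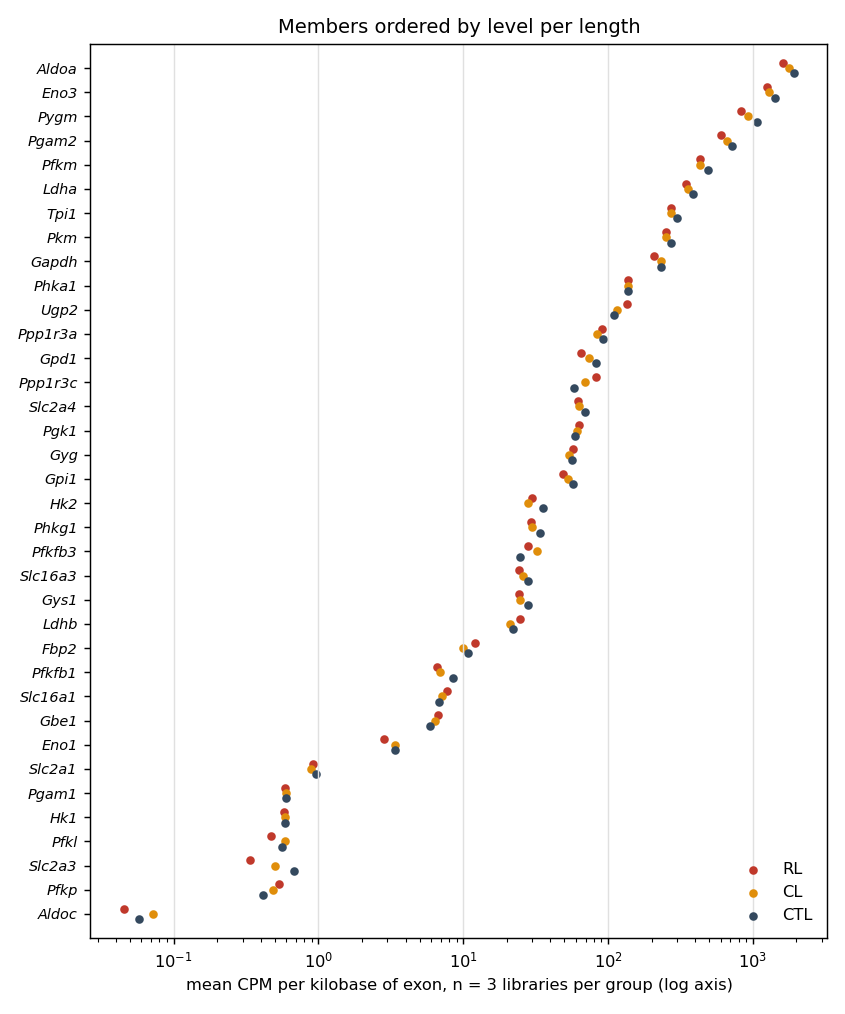
Mean CPM per kilobase of exon of the 36 members on a log axis, with 1 point for each group of 3 libraries (RL, CL and CTL). The length is that of all annotated exons of a gene joined. The members run from Aldoc at 0.0584 to Aldoa at 1772 CPM per kilobase over all libraries, and the 3 groups lie close together for nearly every gene.

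In RL against CTL, 1 of the 36 members passed the test: the glucose transporter gene Slc2a3 fell by 1.01 on the log2 scale. No member rose, and 35 were not called by edgeR's quasi-likelihood test at a Benjamini-Hochberg adjusted p of 0.05 over all 14986 genes, against 0.514% of all genes called. DESeq2 also called Slc2a3 as the single member, where it called 2.05% of all genes with an adjusted p. In the authors' deposited table, which called 2.22% of its genes, 2 members had an adjusted p under 0.05: Slc2a3 and Gpd1, the cytosolic glycerol-3-phosphate dehydrogenase. The members' median log2 fold change was -0.16, beside -0.0083 over all genes tested, and 26 of the 36 (72.2%) had a negative value, beside 51.4% of all genes. An unadjusted p under 0.05 was found for 6 members (16.7%), beside 12.0% of all genes.

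The 3 libraries of RL lay below all 3 of CTL for 9 members, Slc2a3, Aldoa, Pgam2, Eno1, Eno3, Ldha, Gpd1, Pygm and the phosphorylase kinase gene Phkg1, where 10.2% of all genes were separated in that direction. They lay above CTL for 1 member, the phosphoglycerate kinase gene Pgk1, where 10.5% of all genes did. The lowest of the RL libraries was RL 2 for 26 of the 36 members, and without it the members' median moved to -0.089. Without RL 1 that median was -0.21. The 95% interval of the fold change stayed within 2-fold in either direction for 34 of the 36 members, all but Slc2a3 and Aldoc.

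**Figure D2:**
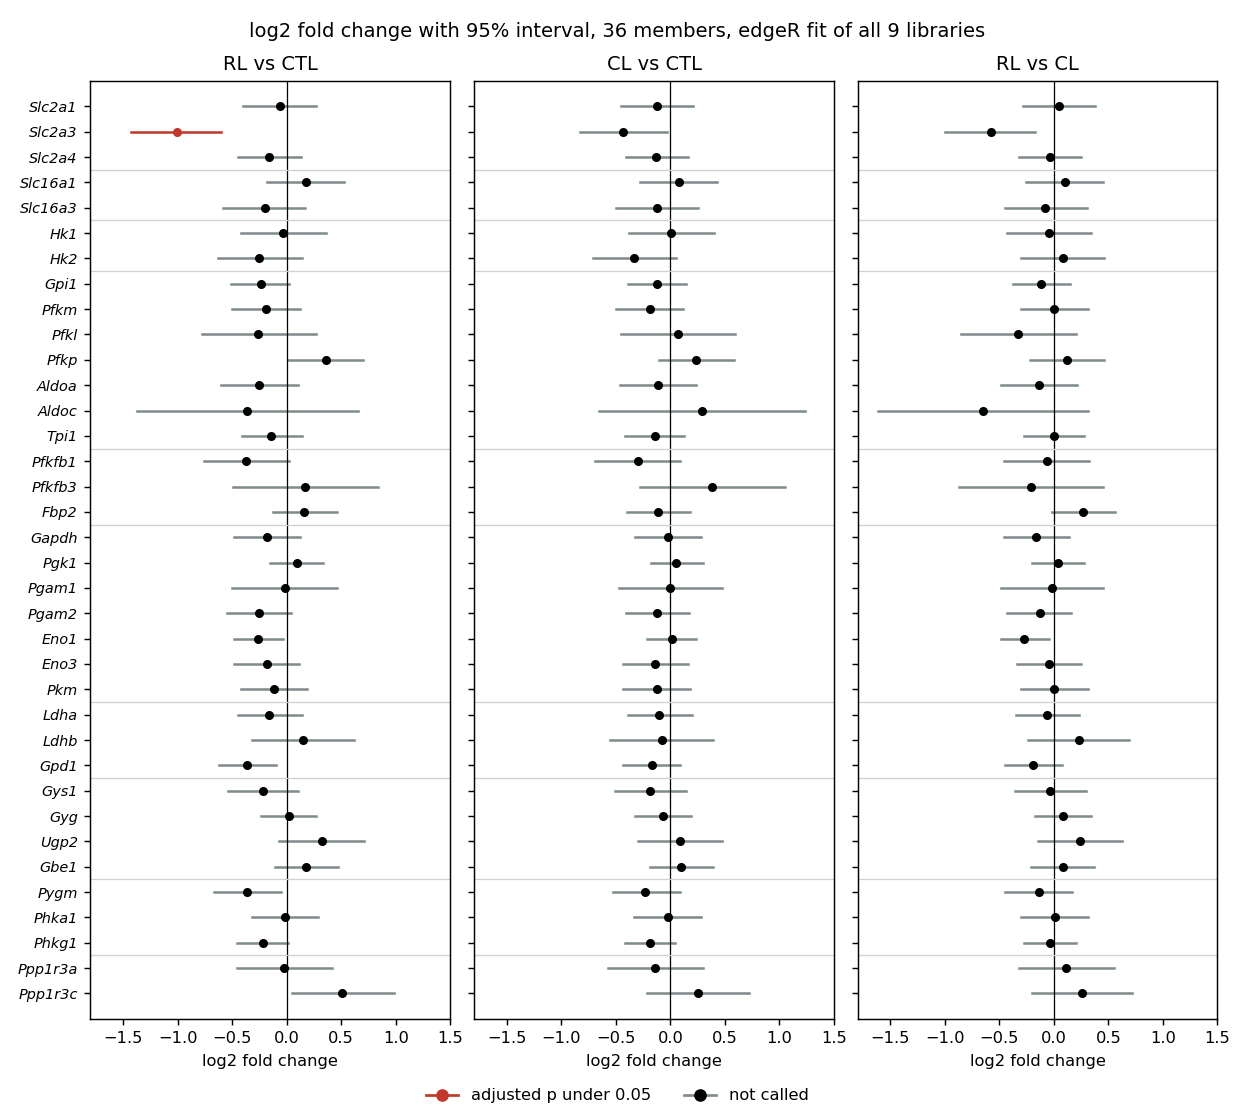
log2 fold change (points) with 95% interval (lines) of the 36 members in RL against CTL, CL against CTL and RL against CL, ordered by role from transport at the top to glycogen at the bottom. Slc2a3 in RL against CTL, at -1.01, is the single value with an adjusted p under 0.05, shown in red.

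Slc2a3 encodes GLUT3, a high-affinity glucose transporter best known from neurons and white blood cells (chr6:122727809-122801640, minus strand, GENCODE vM21 on GRCm38). It had 2.48, 2.74 and 2.09 CPM in RL, 3.02, 4.64 and 3.32 CPM in CL, and 5.50, 4.96 and 4.31 CPM in CTL. The highest RL library lay below the lowest of CL and of CTL, while CL 2 lay among the CTL libraries. The counts behind these values were low, at 97, 112 and 86 reads in RL, 147, 192 and 124 in CL and 219, 176 and 145 in CTL. In RL against CTL the log2 fold change was -1.01 (standard error, SE, 0.19, 95% interval -1.43 to -0.60, edgeR adjusted p = 0.0436, DESeq2 adjusted p = 0.00136). The authors' deposited table gave -0.72 with an adjusted p of 0.00501, from a fit whose settings the sources used here do not give.

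The size of the Slc2a3 difference held from -1.1 to -0.91 on the log2 scale over 16 other ways of processing, while its call did not. The adjusted p exceeded 0.05 without CTL 1 (0.163), CTL 2 (0.148), CTL 3 (0.0994), CL 3 (0.0764), RL 1 (0.187), RL 2 (0.0662) or RL 3 (0.238). It was 0.00672 without CL 1, 0.0185 without CL 2 and 0.0251 without both libraries of the mouse of CL 1 and RL 1. In whole muscle, fewer cells of a type and less RNA per cell cannot be told apart. Beside Slc2a3, the summed level of 14 macrophage markers was 168 to 237 CPM in RL, 104.0 to 248 in CL and 82.5 to 119.7 in CTL. That of 12 Schwann cell markers was 42.4 to 59.5 CPM in RL, 52.9 to 67.2 in CL and 62.6 to 69.2 in CTL, and that of 10 satellite cell markers 67.0 to 80.4 CPM in RL, 83.9 to 93.9 in CL and 86.4 to 97.9 in CTL. Such sums weigh most on abundant markers, while Pax7 averaged 0.49 CPM in RL, 1.57 in CL and 1.79 in CTL. In RL against CL all 10 satellite cell markers were negative, and in RL against CTL 2 were positive. In RL against CL edgeR called Myf5, beside 0.0734% of all genes. DESeq2 called Pax7, Myf5 and Chodl there, beside 0.213% of all genes. No marker of these lists was at 0 in all libraries, and their part in the Slc2a3 result was not tested.

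**Figure D3:**
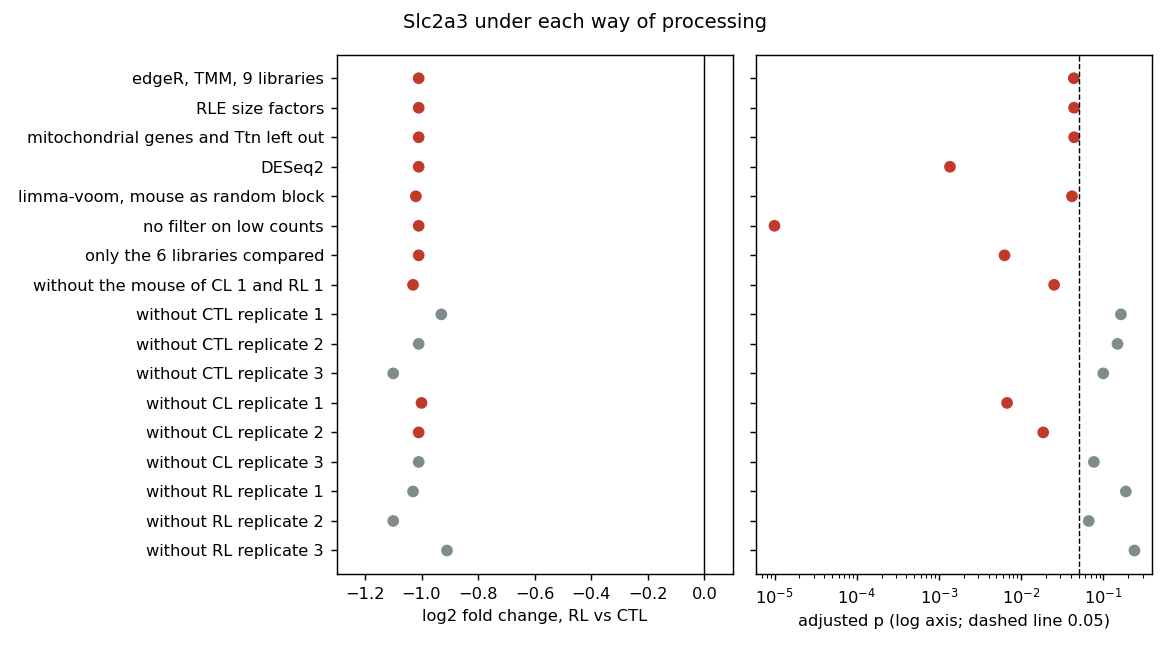
Slc2a3 in RL against CTL under the edgeR fit of all 9 libraries (top row) and 16 alternatives, as log2 fold change (left) and adjusted p on a log axis (right, dashed line at 0.05). Red points were called and grey points were not. The fold change stays between -1.1 and -0.91 while the adjusted p crosses the line.

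The other transporters were not called. Slc2a4, the insulin-responsive glucose transporter, had 215, 203 and 225 CPM in RL, 185, 236 and 236 CPM in CL and 214, 233 and 269.9 CPM in CTL, and the groups overlapped. Its log2 fold change in RL against CTL was -0.16 (SE 0.13, edgeR adjusted p = 0.705). Over the fits that left out 1 library each it ran from -0.23 (without CTL 1) to -0.066 (without CTL 3). Slc2a1 (GLUT1, the transporter of basal uptake) averaged 3.22 ± 0.383 CPM in RL, 3.11 ± 0.366 in CL and 3.38 ± 0.172 in CTL (SD, n = 3 each). Slc16a3 (MCT4, the lactate exporter of fast fibres) averaged 129.9 ± 27.0 CPM in RL, 137 ± 16.0 in CL and 149 ± 27.0 in CTL, and Slc16a1 (MCT1, typical of oxidative fibres) ran from 32.1 to 37.7 CPM in RL, 26.7 to 38.0 in CL and 25.6 to 37.4 in CTL. Their log2 fold changes in RL against CTL were -0.20 for Slc16a3 and 0.18 for Slc16a1, each within the spread of the libraries.

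Hexokinases trap glucose in the cell as its phosphate. Hk2, the form of insulin-sensitive tissues, had 211, 143 and 179.9 CPM in RL, 169, 170.0 and 167 CPM in CL and 174, 190.3 and 270.1 CPM in CTL. RL overlapped both other groups, while all CL libraries lay just below the lowest CTL library. The log2 fold change of Hk2 was -0.25 in RL against CTL (edgeR adjusted p = 0.642). With 1 library left out it ran from -0.39 (without RL 1) to -0.033 (without CTL 3). Hk1 averaged 4.91 ± 0.515 CPM in RL, 5.04 ± 1.38 in CL and 5.02 ± 0.238 in CTL. Of the steps that follow, Gpi1 (phosphoglucose isomerase) averaged 315 ± 37.2 CPM in RL, 342 ± 21.6 in CL and 372 ± 25.7 in CTL, and Tpi1 (triose phosphate isomerase) 748 ± 66.1 CPM in RL, 746 ± 74.8 in CL and 824 ± 50.1 in CTL. Their log2 fold changes in RL against CTL were -0.24 for Gpi1 and -0.14 for Tpi1, neither of them called.

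Phosphofructokinase commits sugar to glycolysis. The muscle form Pfkm had 1624, 1202 and 1509.5 CPM in RL, 1322, 1457 and 1546 CPM in CL and 1544, 1621 and 1772 CPM in CTL. Its log2 fold change in RL against CTL was -0.19 (edgeR adjusted p = 0.668). With 1 library left out that value ran from -0.28 (without RL 1) to -0.063 (without RL 2). The platelet-type Pfkp had 6.88, 5.93 and 8.64 CPM in RL, 7.67, 5.97 and 6.07 CPM in CL and 6.02, 5.30 and 5.41 CPM in CTL. It was 1 of only 2 members whose interval in RL against CTL lay above 0 (log2 fold change 0.36, interval 0.015 to 0.70, edgeR adjusted p = 0.387), and RL 2 lay just under CTL 1. Pfkl had 3.69, 2.82 and 2.89 CPM in RL, 5.31, 2.59 and 3.85 CPM in CL and 2.99, 4.25 and 3.99 CPM in CTL, with overlap in all pairs of groups. Aldoa, the muscle aldolase and the most abundant member, had 6606, 4922 and 6430.1 CPM in RL, 5742, 6702 and 7375 in CL and 6744, 7548 and 7085 in CTL. RL lay below CTL there, with RL 2 far under RL 1 and RL 3, and the log2 fold change was -0.25 (SE 0.16, edgeR adjusted p = 0.593). Aldoc had 0.128, 0.196 and 0.121 CPM in RL, 0.267, 0.169 and 0.267 CPM in CL and 0.276, 0.141 and 0.149 CPM in CTL, and its interval in RL against CTL ran from -1.37 to 0.65 on the log2 scale.

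Pfkfb1, Pfkfb3 and Fbp2 set the flux through that step from outside the main path. Pfkfb1, one of the bifunctional enzymes that make and remove fructose bisphosphate as a signal to phosphofructokinase, had 21.9, 32.2 and 24.8 CPM in RL, 21.1, 33.4 and 28.2 CPM in CL and 30.9, 32.6 and 38.6 CPM in CTL. Its log2 fold change in RL against CTL was -0.37 (SE 0.18, edgeR adjusted p = 0.449), and replicate 2 of RL and of CL lay within the CTL range. Pfkfb3, a form of the same enzyme with high kinase activity, averaged 210.2 ± 60.1 CPM in RL, 243 ± 61.3 in CL and 186 ± 76.9 in CTL, and the single CTL 3 library was at 98.0 CPM. The muscle fructose bisphosphatase Fbp2, which runs the step backwards, had 20.1, 15.8 and 17.5 CPM in RL, 14.3, 15.3 and 14.8 CPM in CL and 12.9, 17.6 and 17.2 CPM in CTL. All RL libraries lay above all CL libraries for Fbp2, and both groups overlapped CTL.

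No gene of the payoff steps of the pathway was called. Gapdh, which makes NADH, had 964, 752 and 840.3 CPM in RL, 886, 886 and 1084 CPM in CL and 893, 989.9 and 1009 CPM in CTL. Its log2 fold change in RL against CTL was -0.18 (edgeR adjusted p = 0.676). With 1 library left out that value ran from -0.28 (without RL 1) to -0.089 (without RL 2). Pgk1, the first ATP-making enzyme, averaged 141 ± 7.71 CPM in RL, 137 ± 16.2 in CL and 132 ± 0.923 in CTL. Its RL libraries, at 149, 134 and 139 CPM, stood above the CTL libraries at 131, 132 and 132 CPM by a narrow margin, with a log2 fold change of 0.095. Pgam2 averaged 506 ± 60.0 CPM in RL, 555 ± 64.1 in CL and 603 ± 43.2 in CTL, and Pgam1 averaged 1.17 ± 0.118 CPM in RL, 1.19 ± 0.184 in CL and 1.19 ± 0.188 in CTL. RL lay below CTL without overlap for Pgam2 (log2 fold change -0.25, edgeR adjusted p = 0.495) and not for Pgam1. Pkm (pyruvate kinase) averaged 1261 ± 209 CPM in RL, 1259.5 ± 89.4 in CL and 1369 ± 41.6 in CTL.

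Both enolases lay lower in RL than in CTL without overlap and without a call. The general form Eno1 (chr4:150236721-150248879, plus strand) had 15.6, 14.2 and 15.6 CPM in RL, 19.9, 17.8 and 17.0 CPM in CL and 17.0, 19.3 and 17.9 CPM in CTL. RL lay below both other groups, and the log2 fold change in RL against CTL was -0.26 (interval -0.48 to -0.032, edgeR adjusted p = 0.338). The muscle form Eno3 averaged 2178 ± 153 CPM in RL, 2245 ± 289 in CL and 2471 ± 106 in CTL (RL against CTL log2 fold change -0.18, edgeR adjusted p = 0.656). Of the 50-base stretches of Eno1 transcripts, 26% also occur in transcripts of other genes, as do 53.9% for Pgk1, 36.2% for Pgam1, 25.8% for Pkm, 25.1% for Gapdh and 21% for the lactate dehydrogenase gene Ldhb. As the counting rule is not given, the counts of these members are uncertain. Over all libraries the genes that share stretches with Pgk1, Pgam1 and Ldhb held 12, 2 and 5 counts, while those sharing with Eno1 held 40616 beside its own 6139. Slc2a3 shares 1.26% of its stretches, with 178 other genes that held 1130431 counts beside its own 1298, so its low counts are uncertain too, and Ppp1r3c shares none. Phkg1 shares 11.1%, with genes that held 2184834 counts beside its own 71864, and Ldha 9.26% (1327169 beside 424962). Gpi1 shares 15.8% (487792 beside 121736) and Gys1 5.79% (75450 beside 43761). Pfkp shares 5.1% (7293 beside 2324), Pfkl 0.0298% (142325 beside 1291) and Pfkfb3 0.376% (430916 beside 76727). The counts of all these members are uncertain as well.

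Lactate dehydrogenase and glycerol-3-phosphate dehydrogenase return NADH to NAD in the cytosol. Gpd1 (chr15:99717515-99725005, plus strand) had 217, 176 and 181 CPM in RL, 223, 208 and 223 CPM in CL and 229, 235 and 272 CPM in CTL. RL and CL each lay below CTL without overlap, and RL 1 lay within the CL range. The log2 fold change in RL against CTL was -0.36 (SE 0.12, interval -0.62 to -0.10), with an adjusted p of 0.230 by edgeR and 0.0733 by DESeq2. The authors' deposited table gave -0.33 with an adjusted p of 0.0197, so Gpd1 was called there and by none of the 16 alternatives run here, whose adjusted p ran from 0.0652 to 0.622. Ldha, the muscle-type subunit, had 1144, 1098 and 1172 CPM in RL, 985, 1229.6 and 1340.0 CPM in CL and 1272, 1336 and 1195 CPM in CTL. RL lay below CTL and within the CL range, with a log2 fold change of -0.16 against CTL (edgeR adjusted p = 0.718). The heart-type subunit Ldhb averaged 38.6 ± 6.67 CPM in RL, 33.0 ± 10.3 in CL and 34.8 ± 5.78 in CTL.

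**Figure D4:**
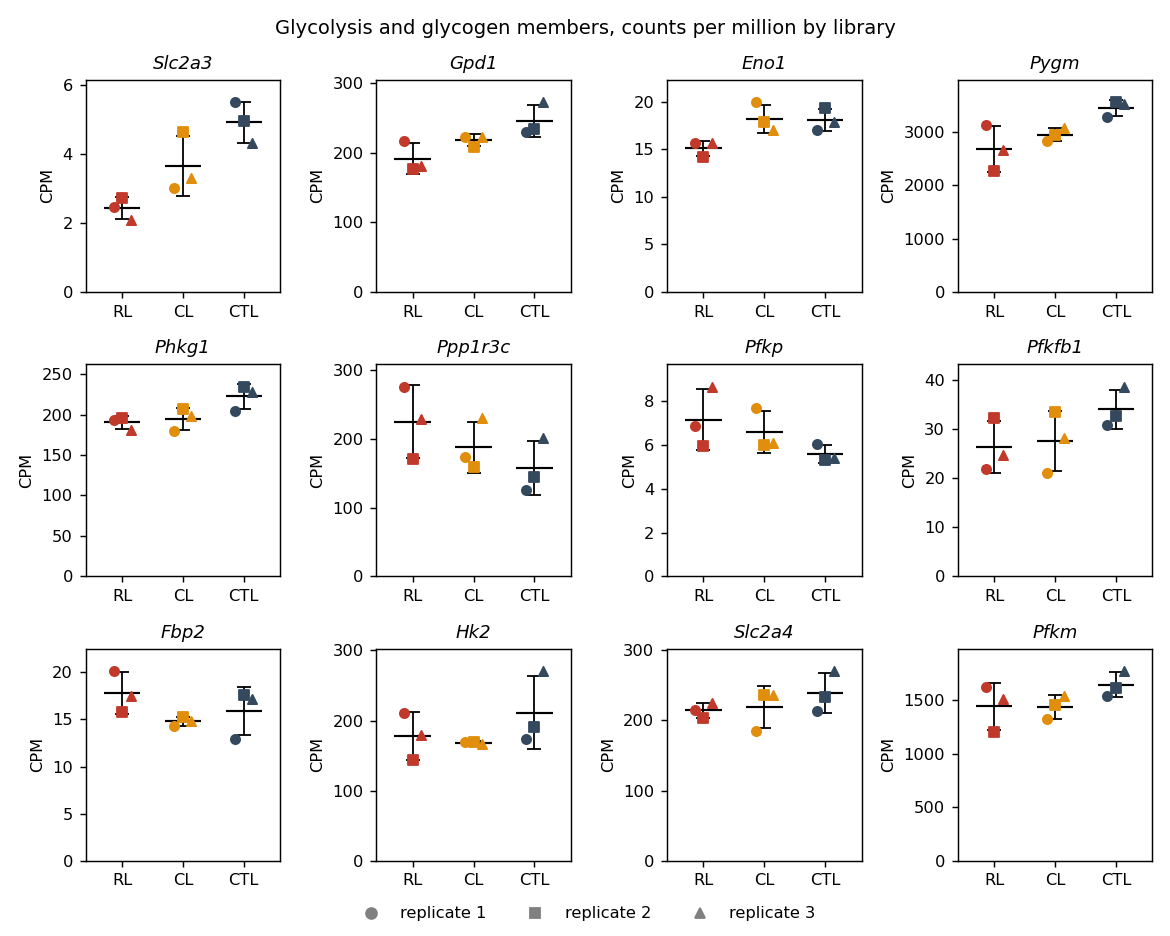
CPM of 12 members in each library, with RL, CL and CTL from left to right, the mark's shape giving the replicate number, and black lines the mean ± SD of 3 libraries. RL lies below CTL without overlap for Slc2a3, Gpd1, Eno1, Pygm and Phkg1, and the groups overlap in the other panels except that CL lies below CTL for Hk2 and below RL for Fbp2.

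Glycogen is built from UDP-glucose by glycogen synthase on a glycogenin primer. Gys1, the muscle synthase, had 141, 97.1 and 109.6 CPM in RL, 125, 113 and 118 CPM in CL and 118, 131 and 156 CPM in CTL. Its log2 fold change in RL against CTL was -0.22 (edgeR adjusted p = 0.612). With 1 library left out that value ran from -0.39 (without RL 1) to -0.10 (without RL 2). Ugp2, which makes UDP-glucose, averaged 418 ± 32.0 CPM in RL, 355 ± 72.9 in CL and 335 ± 68.8 in CTL, and its log2 fold change in RL against CTL was 0.32 (interval -0.068 to 0.71, edgeR adjusted p = 0.525). The glycogenin gene Gyg averaged 134 ± 3.66 CPM in RL, 127 ± 17.7 in CL and 132 ± 6.98 in CTL. The branching enzyme gene Gbe1 averaged 35.9 ± 3.14 CPM in RL, 33.9 ± 3.91 in CL and 31.7 ± 5.04 in CTL. The members of glycogen synthesis thus pointed in both directions, and none was called.

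Glycogen is broken down by phosphorylase, which phosphorylase kinase switches on. Pygm, the muscle phosphorylase whose loss causes McArdle disease (chr19:6384399-6398459, plus strand), had 3128, 2261 and 2665 CPM in RL, 2830.3, 2951 and 3080.3 CPM in CL and 3282, 3556 and 3519.8 CPM in CTL. RL and CL each lay below CTL without overlap, with RL 1 above every CL library. The log2 fold change in RL against CTL was -0.36 (SE 0.14, interval -0.67 to -0.053), with an adjusted p of 0.322 by edgeR and 0.114 by DESeq2. Phkg1, the catalytic subunit of muscle phosphorylase kinase, had 194, 196 and 181 CPM in RL, 180.0, 206 and 198 CPM in CL and 204, 234 and 228 CPM in CTL. RL lay below CTL, and the log2 fold change was -0.22 (interval -0.46 to 0.010, edgeR adjusted p = 0.446). Phka1, the muscle regulatory alpha subunit, averaged 857 ± 82.9 CPM in RL, 853 ± 98.2 in CL and 867 ± 109 in CTL, and its log2 fold change in RL against CTL was -0.015.

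Ppp1r3a and Ppp1r3c encode subunits that bring protein phosphatase 1 to glycogen, where it turns synthase on and phosphorylase off. Ppp1r3c (chr19:36731731-36736653, minus strand), 1 of the members whose promoter is printed, had 276, 170.2 and 229 CPM in RL, 173, 159.5 and 230.2 CPM in CL and 126, 145 and 201 CPM in CTL. The groups overlapped, since RL 2 lay below CTL 3. The log2 fold change in RL against CTL was 0.51 (SE 0.21, interval 0.052 to 0.98), with an adjusted p of 0.355 by edgeR and 0.239 by DESeq2. It passed the threshold under 1 of 16 alternatives, edgeR with no filter on low counts (log2 fold change 0.52, adjusted p = 0.0131), in a fit that called 896 of 28545 genes. Ppp1r3a, the main glycogen-targeting subunit of muscle, averaged 635 ± 80.2 CPM in RL, 586 ± 144 in CL and 644 ± 133 in CTL.

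The balance between the forms of an enzyme differed little between the groups when expressed per exon length. The share of the lactate transporter Slc16a3, given last, differed more. Pfkm made up 99.88% to 99.90% of Pfkm and Pfkl together in RL, 99.80% to 99.91% in CL and 99.87% to 99.90% in CTL. Eno3 was 99.77% to 99.78% of Eno3 and Eno1 in RL, 99.67% to 99.78% in CL and 99.76% to 99.77% in CTL. Pgam2 was 99.90% to 99.91% of Pgam2 and Pgam1 in RL, 99.88% to 99.92% in CL and 99.91% to 99.93% in CTL. The muscle forms thus held nearly all of these transcripts in each library. Hk2 was 97.9% to 98.4% of Hk2 and Hk1 in RL, 97.3% to 98.4% in CL and 98.1% to 98.7% in CTL. Ldha was 93.33% ± 1.3 of Ldha and Ldhb in RL, 94.53% ± 1.2 in CL and 94.57% ± 0.59 in CTL (SD, n = 3 each). Slc16a3 was 78.6%, 71.9% and 76.7% of Slc16a3 and Slc16a1 in RL, 79.8%, 77.8% and 77.3% in CL and 80.0%, 81.6% and 80.0% in CTL. That share lay lower in RL and in CL than in CTL without overlap, by a narrow margin in CL, and no test of it was run. An exact permutation test of 3 libraries against 3 cannot go below 0.10.

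In CL against CTL, which shares its CTL libraries with RL against CTL, no member was called. edgeR called 0 of the 36 members and 0.0% of all genes, and DESeq2 called 0 members, with no adjusted p for Aldoc and Pgam1, where it called 0.155% of all genes. In the authors' deposited table the calls were 0 members and 0.0628% of the genes. By edgeR, 1 member had an unadjusted p under 0.05, 2.78% of the set beside 6.65% of all genes. It was Slc2a3, with a log2 fold change of -0.43 (interval -0.83 to -0.030, adjusted p = 0.734), which ran from -0.63 to -0.30 over the alternatives. The members' median log2 fold change was -0.11, beside -0.0036 over all genes, and 24 of 36 were negative (66.7%, beside 50.9% of all genes).

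The CL libraries lay below all CTL libraries for 3 members, Hk2, Gpd1 and Pygm, where 5.5% of all genes did, and above them for 0 members, where 3.9% of all genes did. The log2 fold changes of these members were -0.33 for Hk2 (edgeR adjusted p = 0.782), -0.17 for Gpd1 and -0.23 for Pygm. With 1 library left out, that of Hk2 ran from -0.44 to -0.11 (without CTL 3). That of Gpd1 ran from -0.21 to -0.094 (without CTL 3) and that of Pygm from -0.26 to -0.20. CL 1 was the lowest CL library for 24 of the 36 members. Pfkfb3 had the highest value of the set, 0.38 with an interval of -0.28 to 1.05, and the intervals of Pfkfb3 and Aldoc were the 2 that reached beyond 2-fold.

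In RL against CL, the limbs of the same mice, no member was called either. edgeR called 0 of 36 members and 0.0734% of all genes, DESeq2 0 members and 0.213% of all genes, and the authors' deposited table gave 0 members and 0.256% of its genes. With the mouse as a block in a fit of the 6 RL and CL libraries, in which 35 members were tested and Aldoc was not, 0 members were called while the calls over all 14692 genes tested came to 64, against 4 in the same 6 libraries without the block and 11 in the fit of all 9 libraries. In that fit of all 9 libraries an unadjusted p under 0.05 was found for 2 members, Slc2a3 and Eno1, 5.56% of the set beside 4.26% of all genes. The log2 fold change of Slc2a3 was -0.58 (interval -1.0 to -0.17, edgeR adjusted p = 0.843), and with the mouse as a block it was -0.57 (adjusted p = 0.246). That of Eno1 was -0.27 (interval -0.49 to -0.045, edgeR adjusted p = 0.999), and -0.27 with the block (adjusted p = 0.459).

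RL lay below CL without overlap for these 2 members, Slc2a3 and Eno1, where 4.36% of all genes did. It lay above CL for 1 member, Fbp2, where 3.94% of all genes did, with a log2 fold change of 0.27 (interval -0.018 to 0.56, edgeR adjusted p = 0.999). The members' median log2 fold change was -0.032, beside -0.0071 over all genes, and 20 of 36 were negative (55.6%, beside 51.7% of all genes). Without the mouse of CL 1 and RL 1 that median was -0.14, and over all alternatives it ran from -0.14 to 0.029. The intervals stayed within 2-fold for 34 of the 36 members, and those of Slc2a3 and Aldoc reached beyond.

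Other genes of energy metabolism were set beside the members in RL against CTL. Of 43 further genes of glycolysis, glycogen and related sugar paths, 36 were tested by edgeR, 0 were called and their median log2 fold change was -0.10. Of 23 genes of pyruvate oxidation, 0 were called (median -0.018), and likewise 0 of 21 genes of fatty acid oxidation (median 0.047) and 0 of 20 genes of the hypoxia response (median 0.085). Unadjusted p-values under 0.05 were found for 3, 1, 0 and 2 genes of these lists. By DESeq2 0 genes of these 4 lists were called. Of 26 genes of insulin and energy sensing edgeR called 0, with 2 (7.69%) at an unadjusted p under 0.05, beside 12.0% of all genes. DESeq2 called 1, beside 2.05% of all genes. That was Prkag3, the AMP-activated kinase subunit of fast glycolytic fibres, at 63.8 ± 9.75 CPM in RL against 87.8 ± 1.84 CPM in CTL (SD over 3 libraries). Its log2 fold change was -0.46, with an adjusted p of 0.0195 by DESeq2 and 0.128 by edgeR. In RL against CL the 20 hypoxia genes had a median of -0.021 and 12 were negative. An unadjusted p under 0.05 was found for 1 of these hypoxia genes (5.0%), beside 4.26% of all genes. edgeR called 0 of them and DESeq2 1, beside 0.213% of all genes. That gene, Adm, a secreted hypoxia-induced peptide, stood at 2.10 ± 0.305 CPM in RL against 0.918 ± 0.178 CPM in CL, with an adjusted p of 0.0340 by DESeq2 and 0.151 by edgeR.

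Markers of the fibre type that runs on glycolysis also lay mostly lower in RL than in CTL. Of 15 fast fibre genes 14 had a negative log2 fold change in RL against CTL, with a median of -0.38, and 11 lay below CTL without overlap, where 10.2% of all genes did. edgeR called 0 of them, with 8 (53.3%) at an unadjusted p under 0.05 beside 12.0% of all genes. DESeq2 called 5 of the 15, beside 2.05% of all genes: Actn3, Tnnt3, Mybpc2, Atp2a1 and Casq1, of the contractile and calcium-handling apparatus. Their summed level was 85488, 75408 and 71914 CPM in RL, 77323, 90865 and 90958 CPM in CL and 98164, 107623 and 94276 CPM in CTL. All RL and all CL sums lay below the lowest CTL sum. In CL against CTL 14 of the 15 genes were also negative (median -0.21), with none at an unadjusted p under 0.05. Of the 13 genes listed for slow fibres, Myh2 included, edgeR and DESeq2 each called 0, none had an unadjusted p under 0.05, and their median was 0.21.

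The summed level of the 36 members was 22822, 18372 and 21634 CPM in RL, 19550.0, 22415 and 24074 CPM in CL and 22914, 24499.5 and 24407 CPM in CTL. RL lay below CTL by a narrow margin, with RL 1 close under CTL 1, while CL spanned most of the range. This sum is of CPM without exon length and weighs most on the abundant members. Aldoa averaged 5986 CPM in RL and 7126 in CTL, Pygm 2685 and 3453, and Eno3 2178 and 2471. The sum of the fatty acid oxidation genes overlapped in all groups, at 1155 to 1259 CPM in RL, 993 to 1264 in CL and 1141 to 1277 in CTL. Markers of other cell types also differed in RL against CTL. All 14 macrophage markers had a positive log2 fold change (median 1.21), and 13 (92.9%) had an unadjusted p under 0.05, beside 12.0% of all genes. edgeR called 2 of them as higher (Itgam and Ccr2) and DESeq2 7, where edgeR called 0.514% and DESeq2 2.05% of all genes. All 10 tenocyte markers were negative (median -0.84), of which edgeR called 2 (Cilp2 and Col11a1) and DESeq2 7. Of 10 satellite cell markers 8 were negative (median -0.54), and edgeR called 3 (Pax7, Calcr and Chodl) and DESeq2 4 as lower. Of 10 pericyte and smooth muscle markers (median -0.24) both tools called Pdgfrb as lower. Of 10 fibroblast markers 5 were negative (median -0.041), and both tools called Lum as higher. edgeR called 0 of 12 endothelial, 12 Schwann cell, 6 tested erythroid and 10 adipocyte markers, with 3, 4, 3 and 0 at an unadjusted p under 0.05, where DESeq2 called Tek among the endothelial and Drp2 among the Schwann cell markers. Their part in the members' values was not tested.

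**Figure D5:**
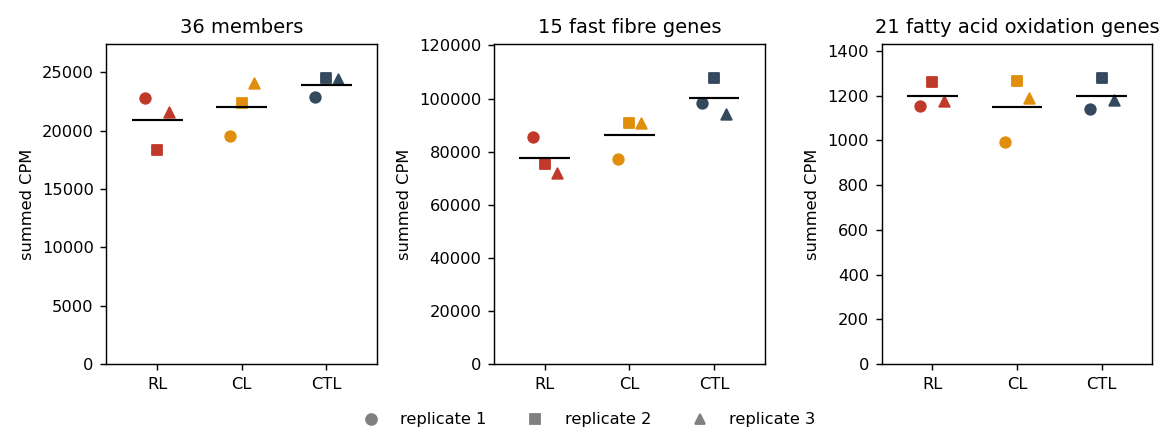
Summed CPM of the 36 members, of 15 fast fibre genes and of 21 fatty acid oxidation genes in each library, with RL, CL and CTL from left to right, marks for the replicate number and a line at the mean of 3 libraries. The fast fibre sums of RL and CL lie below those of CTL, and the fatty acid oxidation sums overlap. Each sum weighs most on its abundant genes.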

How the data were processed

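Total RNA of 9 gastrocnemius samples was extracted from frozen tissue, made into stranded libraries and sequenced, per the labels. The authors deposited raw counts of reads per gene. Per the submitters' processing notes the build was GRCm38.p5 and DESeq2 was used. The aligner, counter, strand setting and gene annotation were not given in the sources used here. The authors' deposited tables of the 3 comparisons hold, per gene, the log2 fold change, the statistic as a score, the p-value before and after adjustment, and a mean normalised signal. Their tables of normalised and regularised values were not used here.

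The raw counts of all 9 libraries entered 1 quasi-likelihood fit with F tests in edgeR 4.0.16 (R 4.3.3) after trimmed mean of M values scaling and edgeR's filter by group, which left 14986 genes. Calls were made at 0.05 on p adjusted by Benjamini-Hochberg over all of these. Intervals are 95% intervals of the log2 fold change from its standard error and the fit's degrees of freedom. DESeq2 1.42.0 and limma 3.58.1 (voom with the mouse as a random effect) were alternatives, with RLE scaling, scaling without mitochondrial genes and Ttn, no filter, fits of the 6 libraries compared, and fits without each library or the mouse of CL 1 and RL 1. The fit with the mouse as a block covers RL against CL. RL and CL of 1 number come from 1 mouse by the labels' mouse numbers, and their deviations from the group means correlated at 0.294, 0.429 and 0.0716 over 14986 genes. The edgeR fit was also run on simulated counts with known changes between RL and CTL. Libraries were drawn independently there, so the shared mouse of RL and CL was not covered.

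The members and lists were chosen with earlier results of these data known. Values by library are given for members called by edgeR or DESeq2, for the 6 with the smallest edgeR p in each comparison, and always for Slc2a4, Hk2, Pfkm, Pygm, Gys1, Ldha and Gapdh; those of Aldoa, the RL and CTL values of Pgk1 and other single values were chosen after they were seen. Coordinates and exon lengths are from GENCODE vM21 on GRCm38, and promoter windows from RefSeq. The symbol Aldoa covers 2 coding gene records there, whose exons were joined.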

Additional observations from a re-analysis of the deposited data

How the results depend on the processing

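In RL against CTL, 1 member was called. Without the filter on low counts 2 members were called, Slc2a3 and Ppp1r3c, and over the fits that left out 1 library each the count ran from 0 to 1. The Slc2a3 call ended in 7 of those 9 fits, and all of its log2 fold changes stayed negative. In CL against CTL and RL against CL, 0 members were called under each alternative run, which includes the replicate block of the mouse for RL against CL (0 of 35 members) and voom with the mouse as a random block (1 member in RL against CTL, 0 in the other comparisons). The call count over all genes was less stable. In RL against CTL it was 77 (333 by DESeq2), 505 with only the 6 libraries compared, 896 without the filter, 291 without the mouse of CL 1 and RL 1, 600 without CL 1, 212 without CL 2, 22 without CL 3, 6, 2 and 12 without CTL 1, CTL 2 or CTL 3, and 5, 51 and 2 without RL 1, RL 2 or RL 3. In CL against CTL it was 0, 17 by DESeq2, 716 without the filter and 1 without CTL 3. In RL against CL it was 11, 4 with only the 6 libraries compared, 39 by DESeq2, 49 by voom, 406 without the filter, 64 with the mouse as a block, 20 without the mouse of CL 1 and RL 1, and 1 to 136 over the fits without 1 library, with 136 without CL 1. The cause was not tested.

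The members' median log2 fold change ran from -0.21 to -0.089 in RL against CTL, from -0.15 to -0.045 in CL against CTL and from -0.14 to 0.029 in RL against CL. Of 51 values of named members (a gene in a comparison), 13 changed sign under at least 1 alternative, and none of these was called. Taken from raw counts without exon length, the mean share over all libraries was 99.76% for Pfkm against Pfkl, 99.78% for Pgam2 against Pgam1, 99.25% for Eno3 against Eno1, 97.12% for Ldha against Ldhb, 97.33% for Hk2 against Hk1 and 81.15% for Slc16a3 against Slc16a1. Per length these shares were 99.88%, 99.91%, 99.76%, 94.14%, 98.1% and 78.19% in the order given, a move of more than 1 SD of the 9 libraries, though for Hk2 and Slc16a3 within their range, and 2 other pairs moved by less. With 3 animals a group, the intervals in RL against CTL were widest for Aldoc, at 5 to 13 counts a library, and for Pfkfb3, and a member that was not called is not shown to be equal between the groups.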
